A study of Homo sapiens with 6 samples.

Results

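The 10 genes described here are CIITA and 9 genes of MHC class II antigen presentation, chosen by their symbols from the 58735 genes of the count table: CD74, HLA-DRA, HLA-DRB1, HLA-DPA1, HLA-DPB1, HLA-DQA1, HLA-DQB1, HLA-DMA and HLA-DMB. Each symbol matched 1 row. RNA was sequenced from MOLM-13, an established line of human acute myeloid leukaemia cells whose genotype is labelled WT in all 6 libraries. The control group was 3 untreated cultures, and the other group was 3 cultures given 3.5 nM of 8p, a synthetic compound that the submitters describe as acting on the kinases RET and CDK8, with an IC50 given as 7 nM. Both groups were incubated for 48 hours, and the replicates are described as independent. The labels do not say if a solvent was added to control cells, so the compound and its solvent cannot be told apart.

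MHC class II molecules are pairs of an alpha and a beta chain that show peptides from endosomes to CD4+ T cells. HLA-DR, HLA-DP and HLA-DQ reach the cell surface. CD74, the invariant chain, escorts new class II molecules to endosomes, and HLA-DM exchanges the remnant of CD74 for peptide. CIITA is a coactivator that does not bind DNA itself. It is recruited by RFX, CREB and NF-Y proteins at X and Y box sequences in the promoters of class II genes, and its own level sets much of their expression. Resting monocytes express class II genes, and interferon gamma raises them through CIITA.

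All 10 genes had higher levels in each 8p library than in any control library. In CPM, the counts per 1000000 counts of a library after its total was scaled with TMM factors, CIITA stood at 2.19, 2.38 and 1.74 in control replicates 1 to 3 and at 109, 106 and 112 in the 8p replicates. HLA-DRA, the alpha chain of HLA-DR, stood at 3.79, 3.18 and 3.43 CPM in controls and at 242, 196 and 242 CPM with 8p. For both genes the 8p libraries lay far above the controls and close to each other. CD74 was already abundant in controls, at 382, 409 and 357 CPM, and reached 2420, 1932 and 2430 CPM with 8p. Of the 9 genes with enough counts to be tested, 9 rose and none fell at an adjusted p under 0.05. Of all 13822 tested genes 74.7% were called, 37.9% higher and 36.9% lower (edgeR quasi-likelihood test, Benjamini-Hochberg adjustment). HLA-DQA1 was not tested. The median log2 fold change of the 9 genes was 5.68, against 0.03 for all genes tested. The 3 values with 8p lay above the 3 control values for 10 of the 10 genes, as they did for 38.9% of all tested genes. In bulk RNA, more cells expressing a gene and more RNA per cell cannot be told apart.

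**Figure D1:**
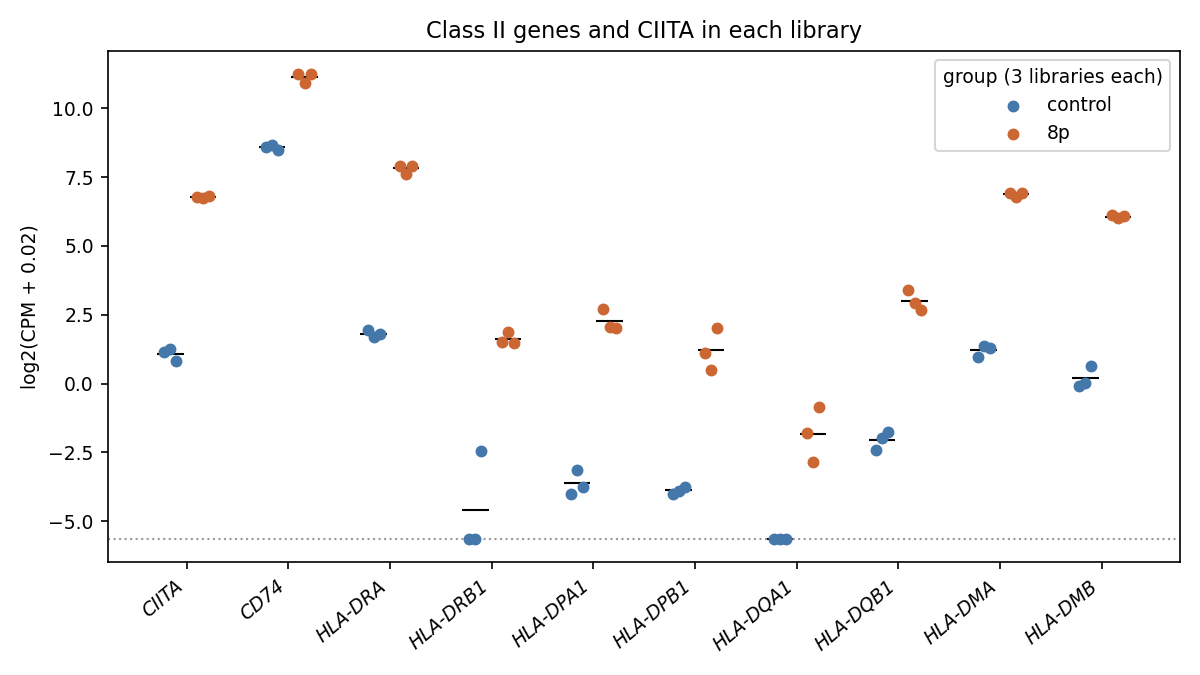
Level of each gene in each library on a log2(CPM + 0.02) scale, with 3 control and 3 8p libraries as points and the group mean as a line; the dotted line marks a level of 0. The 8p points lie above the control points for all 10 genes, and HLA-DQA1 and HLA-DRB1 have control libraries with no count.

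The control libraries held 18834611 to 23485628 counts and the 8p libraries 14972069 to 16210861. Mitochondrially encoded genes took 1.64% to 1.91% of counts in controls, 6.42% in 8p replicate 2 and at least 9.98% in the other 8p libraries. That library stood apart from the other 8p libraries on the second principal component of log2 CPM, which held 4.61% of the variance. Without it, 9 of the 9 genes were still called higher, with a median log2 fold change of 5.70. The 10 genes together took 0.0358% to 0.0419% of all counts in controls and 0.250% to 0.296% with 8p.

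CIITA (ENSG00000179583; GRCh38 chromosome 16, 10866222 to 10943021, plus strand) was 51.1-fold higher with 8p, 5.68 on the log2 scale (SE 0.11, edgeR adjusted p = 1.03e-14). Its fitted change ran from 5.55 to 5.86 over 17 alternative settings. DEXI overlaps CIITA by 13570 bases on the other strand. It had 59 counts in controls and 396 with 8p, equal to 7.83% of the counts of CIITA in those libraries. The sources used here give no strand setting for the counting, so reads of the overlapping parts could not be assigned by strand. DEXI was called higher as well (log2 fold change 3.18). Of the 50-base stretches of the longest coding CIITA transcript, 20.3% also occur in transcripts of other genes, mostly AC133065.3, which had no count in any library.

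The factors that recruit CIITA to class II promoters moved far less than CIITA. Of 7 tested, 1 rose and 5 fell, beside 37.9% higher and 36.9% lower of all tested genes. Their median was −0.43 on the log2 scale. RFX5, the DNA-binding subunit of RFX, went from 61.5 ± 4.88 to 47.5 ± 0.690 CPM (SD, n = 3), or by −0.37 on the log2 scale. The fall of RFX5 was no longer called with upper quartile scaling (edgeR, adjusted p = 0.0508, with a range of 5.28e-07 to 1 over 17 alternatives). RFXAP, its partner subunit, fell by 0.56, and RFXANK, the other partner, had a value of −0.12 (edgeR, adjusted p = 0.248). RFXANK was positive with upper quartile scaling and called lower with no filter on low counts (−0.24, edgeR adjusted p = 0.0175). NFYA, NFYB and NFYC, the subunits of NF-Y, fell by 0.53, 0.43 and 0.47 on the log2 scale. CREB1, which binds the part of the X box next to RFX, rose from 46.0 ± 4.13 to 91.6 ± 5.25 CPM.

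Of 8 members with a promoter window in the RefSeq table (build GRCh38.p14), 5 held a stretch of X box letters followed by Y box letters, and these are shown because such boxes are the known sites of the factors that recruit CIITA. A window covers 250 bases before to 50 after the RefSeq gene start. The letters searched were CNAGNNAC, then ATTGG or its reverse complement 10 to 45 bases downstream, on both strands. They were chosen after the windows of class II genes had been read. Of all 35116 windows, 2.60% held such a stretch, as did 5 of the 9 member windows. Because the letters were chosen after those windows had been read, that contrast is no test. The search planned at first used other X box letters, GNNACAGNT, followed by ATTGG on the same strand. It matched 1 of the 9 member windows, that of HLA-DQB1, and 0.456% of all windows. Both boxes are in capitals, 5′ to 3′ on the strand of the gene.
CD74 (chr5:150412947-150413005, minus strand): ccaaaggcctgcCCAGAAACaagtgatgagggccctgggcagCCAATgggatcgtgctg
HLA-DRB1 (chr6:32589878-32589941, minus strand): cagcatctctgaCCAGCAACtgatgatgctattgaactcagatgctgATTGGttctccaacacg
HLA-DQA1 (chr6:32637290-32637354, plus strand): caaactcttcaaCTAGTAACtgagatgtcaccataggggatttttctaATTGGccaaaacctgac
HLA-DQB1 (chr6:32666729-32666792, minus strand): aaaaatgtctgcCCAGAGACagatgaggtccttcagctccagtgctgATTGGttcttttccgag
HLA-DMA (chr6:32953160-32953224, minus strand): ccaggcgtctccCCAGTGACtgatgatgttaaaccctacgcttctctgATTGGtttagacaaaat

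The boxes were 27 or 28 bases apart in the HLA genes shown and 22 in CD74, where the Y box letters ran in the opposite orientation. The X box letters began 81 to 123 bases before the RefSeq gene start. The stretches of HLA-DQA1, HLA-DQB1 and HLA-DMA lie inside the gene positions given below, which start farther upstream. The window of HLA-DMB and 1 of the 2 windows of HLA-DPA1 held the X box letters without the Y box letters at that distance. The other HLA-DPA1 window held neither, and that of HLA-DPB1 held Y box letters alone. A match describes the letters only and shows no binding.

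HLA-DR had the largest summed level of the class II pairs, which HLA-DRA carried: HLA-DRB1 lay below both HLA-DM chains per kilobase. HLA-DRA (chromosome 6, 32439842 to 32445046, plus strand) rose by 6.02 on the log2 scale (SE 0.12), the 39th largest rise of 13822 tested genes. HLA-DRB1, the beta chain (chromosome 6, 32578769 to 32589848, minus strand), had 0, 0 and 3 counts in controls and 42, 60 and 41 with 8p. Its counts thus gave a ratio of 65.0 (95% exact interval 21.8 to 319, counting error only). Control replicate 3 held all control counts. Without it, a floor of 3 counts over the remaining control libraries gave a 46.2-fold rise of HLA-DRB1. The ratio was 40.7 (13.7 to 200) without control replicate 1 and 43.1 (14.5 to 212) without control replicate 2. The value of 46.2 is therefore no lower limit. Per kilobase of the gene length in the file, HLA-DRA stood at 177 CPM with 8p and HLA-DRB1 at 2.48 CPM. Of the 50-base stretches of the longest coding HLA-DRB1 transcript, 9.92% also occur in transcripts of other genes, mostly HLA-DRB5. The file has no row for HLA-DRB3 or HLA-DRB4, and whether the line's own beta chain alleles match the reference was not tested, so the level of HLA-DRB1 is uncertain. HLA-DRB6, a pseudogene, had no count in any library. HLA-DRB5 had no count in controls and 6, 7 and 0 counts with 8p, and its groups overlap.

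HLA-DP and HLA-DQ had few counts in either group. HLA-DPA1 (chromosome 6, 33064569 to 33080775, minus strand) had 1, 2 and 1 counts in controls and 99, 69 and 60 with 8p. HLA-DPB1 (chromosome 6, 33075926 to 33087201, plus strand) had 1 count in each control library and 32, 23 and 60 with 8p. Both groups were apart in each case, on few reads per library. The ratio was 77.8 (30.0 to 288) for HLA-DPA1 and 52.3 (17.5 to 257) for HLA-DPB1. These genes overlap by 4850 bases on opposite strands, so their counts are not independent. HLA-DQB1 (chromosome 6, 32659467 to 32668383, minus strand) had 4, 5 and 5 counts in controls and 159, 126 and 94 with 8p, a log2 fold change of 5.16 (SE 0.34, edgeR adjusted p = 1.36e-09). HLA-DQA1, its alpha chain (chromosome 6, 32628179 to 32647062, plus strand), had no count in controls and 4, 2 and 8 counts with 8p. A floor of 3 counts for the control group gave a 6.37-fold rise of HLA-DQA1. With 1 library left out it ran from 3.99 (without control replicate 1) to 8.51 (without 8p replicate 2). These values leave out the counting error of the few 8p counts, so they are no lower limits. Of the 50-base stretches of HLA-DQA1, 9.53% are shared with HLA-DQA2, which had no count in any library.

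The genes of peptide loading rose like HLA-DRA. HLA-DMA (chromosome 6, 32948613 to 32969094, minus strand) stood at 1.94, 2.57 and 2.45 CPM in controls and at 122, 110 and 123 CPM with 8p. HLA-DMB, its beta chain (chromosome 6, 32934629 to 32941070, minus strand), stood at 0.927, 0.981 and 1.52 CPM in controls and at 69.6, 63.9 and 67.7 CPM with 8p. Groups of both genes were well apart, with log2 fold changes of 5.68 (SE 0.12) and 5.89 (SE 0.14). Transcripts of AL645941.2, which overlaps both genes on the same strand and had no count, share 11.6% of the 50-base stretches of HLA-DMA and 29% of those of HLA-DMB, so their levels are uncertain. HLA-DMA overlaps BRD2 by 435 bases on the other strand. BRD2, a bromodomain protein, went from 337 ± 26.2 to 463 ± 31.4 CPM, which is 0.46 on the log2 scale. CD74 (chromosome 5, 150401637 to 150412929, minus strand) had the smallest rise of the 9 genes, 2.56 on the log2 scale (SE 0.10, edgeR adjusted p = 3.24e-12) or 5.91-fold, and ranked 607th. The other 8 tested genes ranked between the 34th and the 74th.

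**Figure D2:**
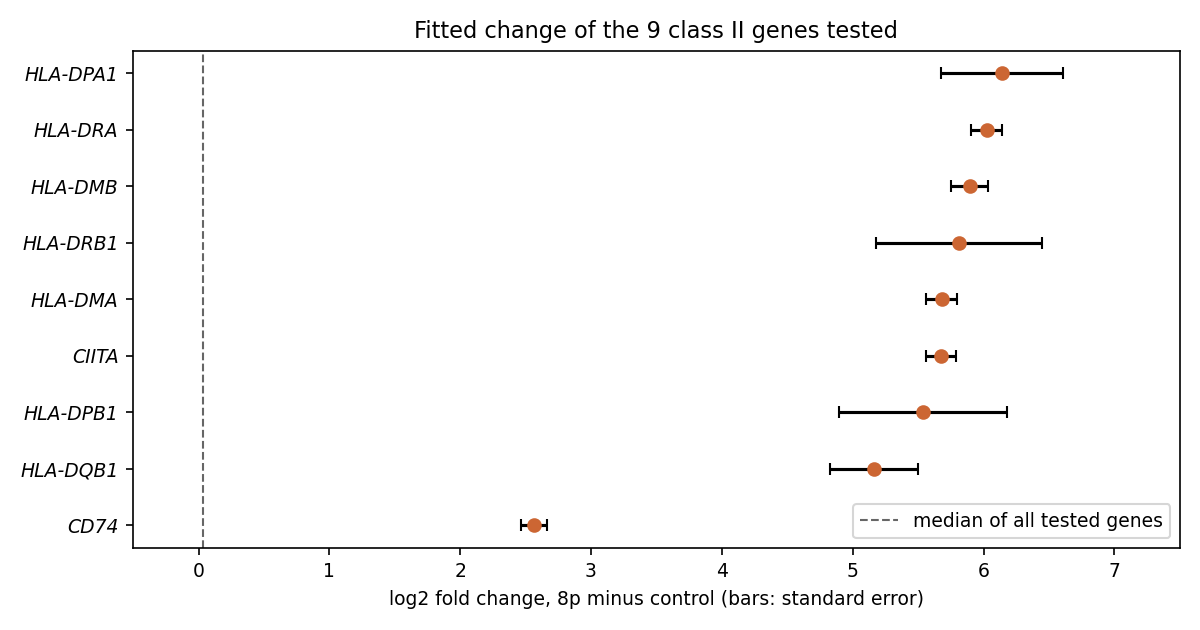
Log2 fold change of 8p against control for the 9 genes tested, with its standard error (n = 3 libraries a group); the dashed line marks the median of all tested genes. CD74 lies at 2.56 and the other 8 genes between 5.16 and 6.14, with the widest bars for HLA-DRB1 and HLA-DPB1, which had 3 control counts each.

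Per kilobase, the order of mean levels with 8p was CD74 (710 CPM), HLA-DRA (177), HLA-DMA (46.7), HLA-DMB (14.4), CIITA (5.24), HLA-DRB1 (2.48), HLA-DQB1 (1.66), HLA-DPB1 (0.902), HLA-DPA1 (0.857) and HLA-DQA1 (0.0445). HLA-DQB1 and HLA-DPB1 overlapped between libraries, as did HLA-DPB1 and HLA-DPA1. The other neighbours in this order did not. The file's length counts every exon of a gene once and is 20757 bases for CIITA. With the longest coding transcript as length, HLA-DPA1 (2.89 CPM per kilobase) and HLA-DQB1 (4.71) passed HLA-DRB1 (2.48). In controls the first 5 genes stood in the same order, from 120 CPM per kilobase for CD74 to 0.101 for CIITA.

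The make-up of class II chain RNA was compared apart from its amount. Of the counts per kilobase over the 8 chain genes, HLA-DR took 69.0% ± 4.72 in controls and 73.5% ± 1.09 with 8p (SD, n = 3), a difference of 4.47 points (exact permutation p = 0.40, adjusted p = 0.533 over the 4 shares compared, two-sided). That difference was 7.16 points without control replicate 1, 2.73 without control replicate 2, and 1.30 when HLA-DPA1, HLA-DPB1 and HLA-DMA, which overlap other genes, were left out. HLA-DM took 29.1% ± 4.34 and 25.1% ± 1.19 (exact permutation p = 0.40, adjusted p = 0.533), a difference of −4.03 points. That difference became −6.50 and −2.43 without those control libraries and −0.657 without those genes. The values of 1.30 and −0.657 are for shares of a smaller base that lacks HLA-DMA, the larger HLA-DM chain. They are therefore not like the other differences. The HLA-DQ share was 0.863%, 1.26% and 1.32% in controls and 0.848%, 0.721% and 0.532% with 8p, so the groups did not overlap. Its means were 1.15% ± 0.249 and 0.700% ± 0.159 (exact permutation p = 0.10, adjusted p = 0.40). HLA-DP took 0.709% ± 0.155 and 0.712% ± 0.139 (exact permutation p = 1, adjusted p = 1). With 3 libraries against 3 the test cannot go below 0.10, so a p above the threshold does not show that the shares were alike.

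**Figure D3:**
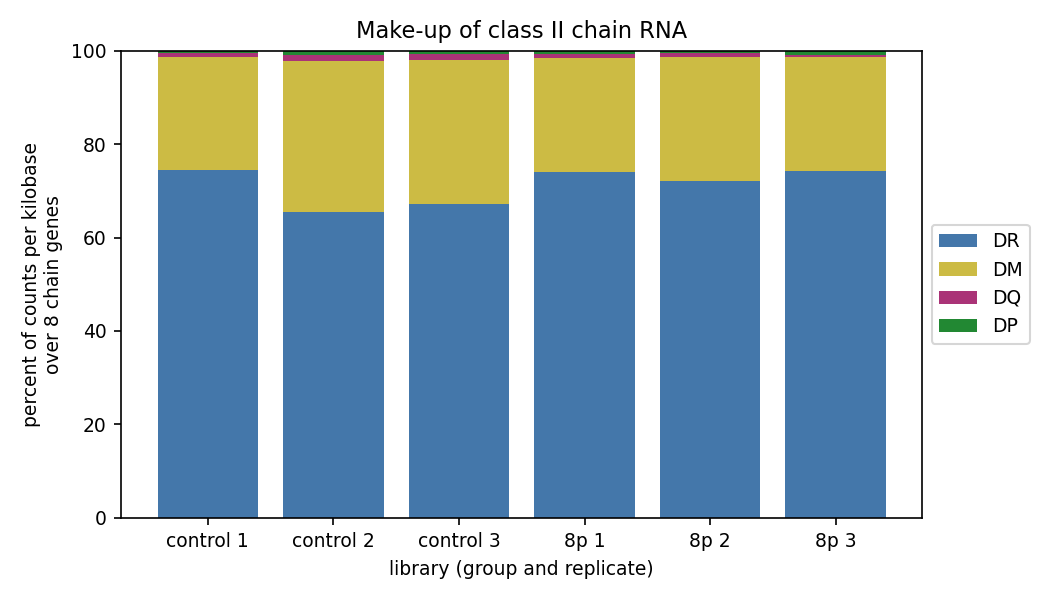
Share of HLA-DR, HLA-DM, HLA-DQ and HLA-DP in the counts per kilobase of the 8 chain genes, 1 bar per library. HLA-DR takes 65.5% to 74.4% in control libraries and 72.2% to 74.2% in 8p libraries.

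The region from HLA-DRA to HLA-DPB1 spans 647 kb of chromosome 6 and holds 8 of the genes and 26 others. Of the 7 members tested there 7 rose. Of the 7 other genes tested 3 rose, 1 fell and 3 were not called, beside 37.9% higher and 36.9% lower of all tested genes. HLA-DOB, the beta chain of the HLA-DM inhibitor HLA-DO, stood at 4.98, 4.86 and 3.81 CPM in controls and at 6.65, 9.23 and 5.20 CPM with 8p, 0.63 higher on the log2 scale (edgeR adjusted p = 0.0164). Its call was lost without 8p replicate 2 (0.34, edgeR adjusted p = 0.137) and without control replicate 3 (0.50, edgeR adjusted p = 0.0826), with a range of 0.0031 to 0.349 over 17 alternatives. HLA-DOA, the alpha chain of HLA-DO, had 2 counts in controls and none with 8p. TAP1, a subunit of the class I peptide transporter, rose by 0.65, and TAP2, the other subunit, had a value of −0.48 (edgeR adjusted p = 0.0531, from 0.00506 to 0.645 over 17 alternatives, 5 of which called it lower). PSMB8, an immunoproteasome subunit, fell from 125 ± 8.03 to 52.1 ± 3.45 CPM, or by −1.26 on the log2 scale. PSMB9, another such subunit, had a value of 0.20 and PSMB8-AS1 one of −0.33 (edgeR adjusted p = 0.157 and 0.0858). PSMB9 was called higher with upper quartile scaling (edgeR adjusted p = 0.0102). PSMB8-AS1 was called lower with no filter on low counts, without control replicate 2 and without 8p replicate 1 (edgeR adjusted p = 0.00762, 0.0188 and 0.0495). PSMB8-AS1 and PSMB9 overlap each other, PSMB8 and TAP1 in the file's positions, so their counts are uncertain.

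**Figure D4:**
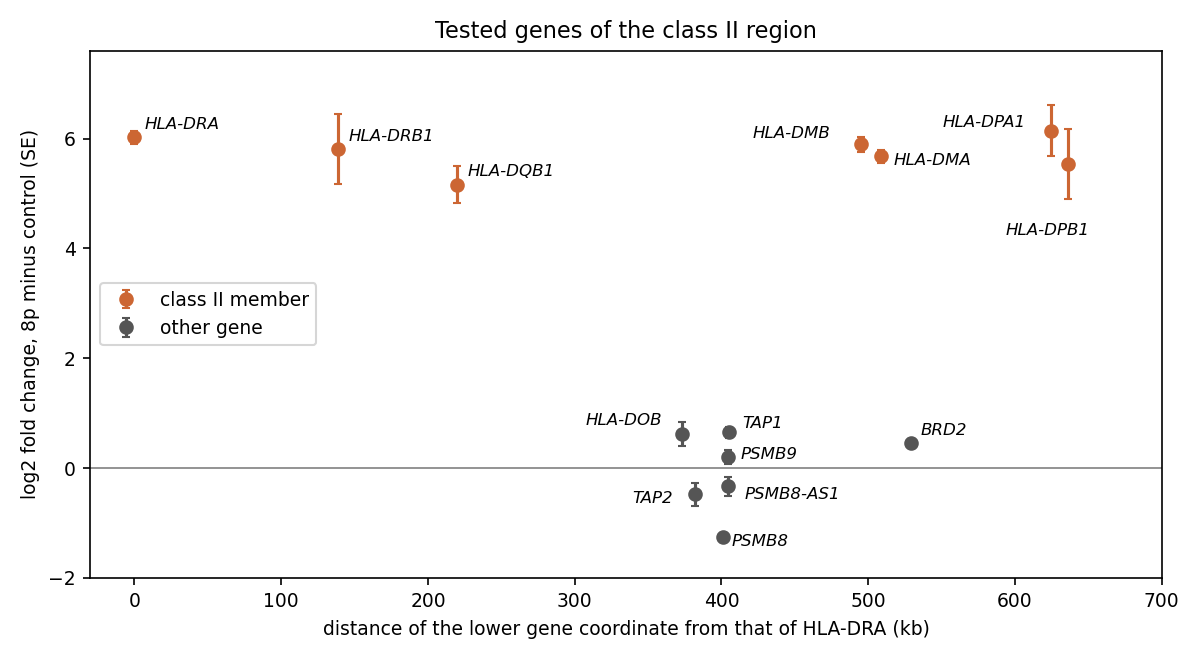
Log2 fold change (bars: SE) of the 14 tested genes between HLA-DRA and HLA-DPB1 on chromosome 6, by distance of the gene's lower coordinate from that of HLA-DRA. The 7 class II members lie between 5.16 and 6.14 at both ends of the region, and the 7 other genes between −1.26 and 0.65.

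Class I genes moved less and in both directions. Of 16 tested genes of class I presentation 8 rose and 4 fell, a share close to the 74.7% called among all tested genes, and the median was 0.28 on the log2 scale. HLA-E rose by 1.00, HLA-B by 0.92 and HLA-C by 0.78, and B2M, their shared light chain, by 0.82. NLRC5, the class I counterpart of CIITA, rose from 56.0 ± 1.54 to 80.7 ± 2.56 CPM, or by 0.53 on the log2 scale. CALR and PDIA3, chaperones of class I assembly, fell by 2.07 and 0.87.

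Among genes known to act on CIITA, 11 of 12 tested rose and none fell, beside 37.9% higher and 36.9% lower of all tested genes. Their median was 0.76 on the log2 scale. IFNG, which encodes interferon gamma, had no count in any library. JAK2, a kinase of the interferon gamma receptor, rose by 1.84, and IRF1, a transcription factor induced by interferon gamma, by 0.82. USF1, which binds a CIITA promoter, rose by 0.99. SPI1 and IRF8, myeloid factors, rose by 0.68 and 0.69, from 328 ± 7.78 to 526 ± 21.5 CPM and from 452 ± 11.3 to 730 ± 8.97 CPM. SOCS1, an inhibitor of JAK signalling, rose by 1.24. PRDM1, a repressor of CIITA in plasma cells, had the largest rise of the list, from 2.96 ± 0.727 to 49.8 ± 1.55 CPM (log2 fold change 4.05).

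Of 12 tested endosomal genes that prepare class II ligands, 12 rose, beside 37.9% called higher of all tested genes. Their median was 1.28 on the log2 scale. IFI30, a thiol reductase that unfolds antigens, had 11 counts in controls and 268 with 8p, a log2 fold change of 4.99. CTSS, the protease that trims CD74 in myeloid cells, rose from 86.8 ± 4.17 to 229 ± 12.04 CPM, or by 1.40 on the log2 scale. The cathepsins CTSF, CTSD and CTSZ rose by 2.57, 2.09 and 1.63. LGMN, an asparaginyl protease of the same compartment, had 1 count in controls and 2 with 8p. MARCHF1, a ubiquitin ligase that removes class II molecules from the surface, rose by 1.42, and CD83, which opposes it, fell by 0.72. MARCHF8, its relative, had a value of −0.13 (edgeR adjusted p = 0.357). The symbols of both ligases read as dates in the file, so both were found by gene identifier.

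Of 11 costimulation and adhesion genes 6 were tested, and 4 of these rose, beside 37.9% called higher of all tested genes. CD86, a ligand of CD28, rose from 7.57 ± 0.629 to 73.1 ± 4.16 CPM (log2 fold change 3.27), ICAM1 by 1.64, TNFSF9 by 1.28 and CD70 by 1.24. CD80, the other CD28 ligand, had 6 counts in controls and 1 with 8p, and CD40 had 8 and none.

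**Figure D5:**
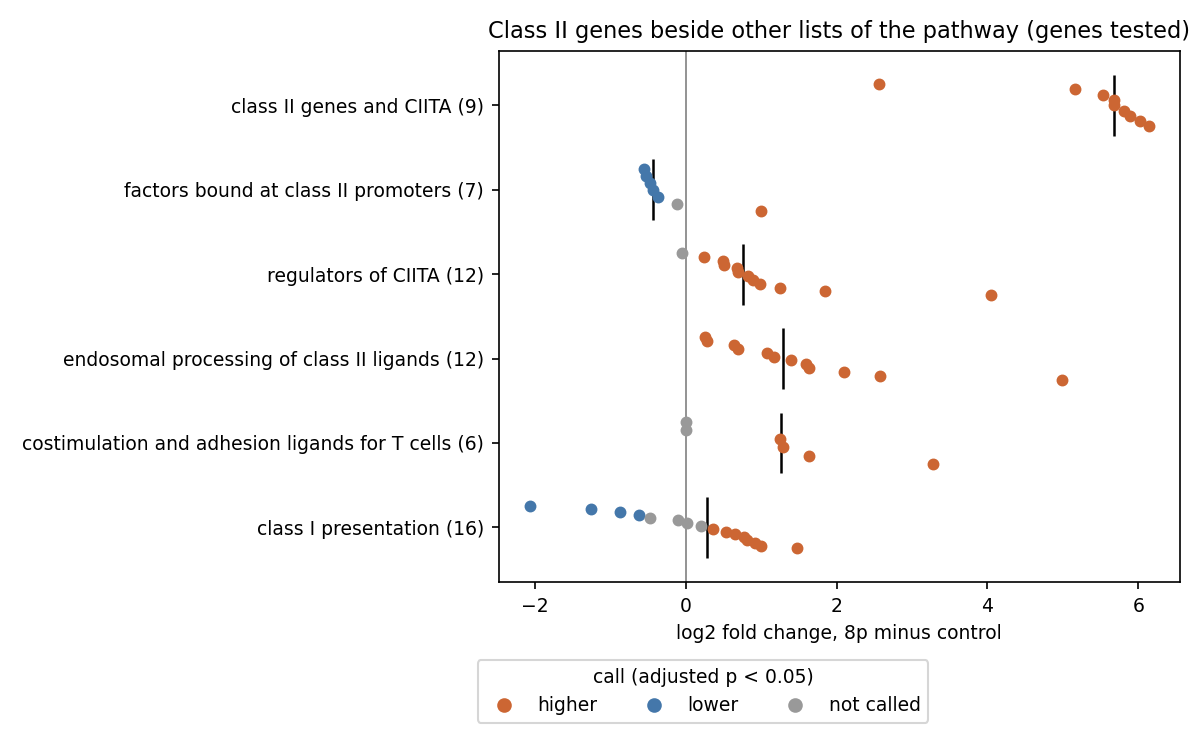
Log2 fold change of each tested gene of 6 lists, with the number tested in brackets, the call by colour and the list median as a line. The class II genes and CIITA have a median of 5.68, against −0.43 to 1.28 in the other lists.

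The centred log2 CPM values of the 6 libraries were compared between CIITA and 10237 protein-coding genes outside the 10. The nearest were SGSH, SLAMF7, SDS, CCR7 and PRR33, at Euclidean distances from 0.524 to 0.795. Among members, the distance from CIITA was 0.457 for HLA-DMA, 0.613 for HLA-DRA and 0.831 for HLA-DMB. Of these, only HLA-DMA lay nearer to CIITA than all of the non-members just named. HLA-DRA lay farther than SGSH (0.524) and SLAMF7 (0.559), and HLA-DMB farther than all of those non-members. The remaining tested members also lay farther than all of them, from 1.16 for HLA-DPA1 to 3.78 for CD74. For HLA-DRA near genes by the same measure were SLAMF7, PRR33, SGSH and CD6, from 0.829 to 1.14. With 2 groups of 3 libraries, such distances mostly reflect a similar size of change. SGSH overlaps SLC26A11 on the other strand, so its counts are uncertain.

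Markers of other class II-positive cells were measured beside these results. For the calls in this and the next paragraph, 37.9% of all tested genes were called higher and 36.9% lower. Of 10 B cell markers 5 had no count in any library, PAX5 and EBF1 among them, and the summed level of the list was 1.64 to 1.69 CPM in controls and 1.86 to 2.29 CPM with 8p. Of the 2 tested none was called, and CD79A, a part of the B cell receptor, had an edgeR adjusted p of 0.812. Of 12 dendritic cell markers CLEC9A, CD1C, CD1A and CD207 had no count, and of 4 tested 3 rose and 1 fell. CCR7, a chemokine receptor, rose by 5.32, ZBTB46 by 2.17 and CADM1 by 1.98, while BATF3 fell by 4.30 on the log2 scale. BATF3 had 62 counts in controls and 2 with 8p, both in replicate 3. Leaving that library out moved its log2 fold change to −7.23. The summed level of that list was 57.5 to 64.6 CPM in controls and 250 to 262 CPM with 8p, mostly of CADM1. Its part in the class II result was not tested.

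Of the 12 myeloid markers 11 were tested, and 8 rose and 2 fell. LYZ rose from 1040 ± 60.0 to 3732 ± 369 CPM, CSF1R by 3.87 on the log2 scale and CD14 by 2.31, while CD33 fell by 0.50 and MPO by 0.64. The summed level of these 12 markers was 2074 to 2204 CPM in controls and 5220 to 5813 CPM with 8p. CD68 had 11 counts in controls and none with 8p, and ANPEP had 7 and 74. Of 5 tested T and NK cell markers 3 rose and 2 fell, and CD8A and KLRD1 had no count. CD5 and GNLY rose by 4.49 and 2.95, and CD3D and TRAC fell by 2.64 and 1.42 on the log2 scale. The value of CD5 was 8.47 without control replicate 1. Of 3 tested epithelial and fibroblast markers 2 rose and 1 fell. COL1A1 rose by 5.80 and KRT8 by 1.11, while KRT18 fell by 1.47, and the call of KRT8 was lost without control replicate 2 or 8p replicate 1. EPCAM, KRT19, COL1A2 and COL3A1 had no count. The summed level of the T and NK cell list was 34.8 to 36.9 CPM in controls and 36.7 to 47.8 CPM with 8p, and that of the epithelial and fibroblast list 10.2 to 10.9 and 31.8 to 42.5 CPM. The part of these markers in the class II result was not tested.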

How the data were processed

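The authors deposited whole-number read counts per gene, not normalized, for 3 control and 3 8p libraries. HISAT2 2.0.5, featureCounts 1.5.0-p3 and build hg38 are named per the submitters' processing notes, and no strand setting is named in the sources used here. The labels name poly(A) capture or ribosomal RNA removal without saying which. All 58735 gene positions equalled those of GENCODE release 29.

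Counts were tested in R 4.3.3 with edgeR 4.0.16 (TMM factors, filterByExpr, quasi-likelihood F test, group as the only term), with Benjamini-Hochberg adjustment over the 13822 genes tested. Each fold change is a change in a gene's share of the RNA, as the labels name no spike-in. Each SE follows from the log2 fold change and its F statistic. Ratios of genes with few counts carry exact 95% binomial intervals, and floors are 3 counts over a group. Intervals cover counting error only, and floors only that of the control counts. Alternatives were DESeq2 1.42.0, limma-voom 3.58.1, other scalings, filters and thresholds, the replicate block and each library left out. The pipeline was tested on simulated data in which far fewer genes changed than were called here. That test does not cover data in which most genes change. Depth ran from 14972069 to 23485628 counts per library.

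The 10 genes and all lists were chosen with earlier results of these data known. Named were all 10 genes, up to 4 called genes with the largest change per list, a set of pathway genes whatever their result, and tested genes of the class II region. NFYB, MARCHF8, PDIA3, CD33, MPO, CD68, CD79A, IFNG and HLA-DQA2 lie outside that rule and were added after their values were seen. Some genes that the rule names are not reported here.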

Additional observations from a re-analysis of the deposited data

How the results depend on the processing

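Over 17 alternatives, 153 of 153 values of the 9 tested genes kept their direction and call. The number of genes called was 10330, and 6293 when a fold change of 1.5 was the minimum tested. Among the genes followed over the alternatives, that minimum ended the calls of RFX5, RFXAP, NFYA, NFYC, NLRC5, SPI1, TAP1, HLA-DOB, CD83, BRD2 and KRT8. NFYB, CD33, MPO, PDIA3 and DEXI were not followed, so whether their calls hold was not tested. The number of genes called was 10090 with the replicate block. Same-numbered libraries did not deviate together (correlations −0.0432 to −0.0071), and the block changed no call of the 9 tested genes. TAP2 was called lower with the block (edgeR adjusted p = 0.0340). Upper quartile scaling moved the median of all genes to 0.22, and no filter on low counts to 0.14. The fitted change of HLA-DRB1 ran from 5.18 to 8.80 as libraries were left out. The HLA-DQ share differed by −0.448 points, by −1.09 without division by length and by −0.778 with transcript lengths, the latter chosen after seeing the data; the cause was not tested. Depth limits HLA-DQA1, HLA-DRB1, HLA-DPA1 and HLA-DPB1, which had 0 to 4 control counts in all.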

Other observations

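Per kilobase, CD74 exceeded HLA-DRA by 40.5, 51.7 and 41.9 times in the control libraries, and by 4.01, 3.97 and 4.04 times in the 8p libraries. The groups did not overlap in this ratio. Its size depends on the gene length used, here that of the file, but the order of the libraries does not. With the longest coding transcript as length, CD74 had a mean of 222 CPM per kilobase in controls and 1309 with 8p. HLA-DRA then had 2.71 and 177. The ratio of HLA-DMA to HLA-DMB was 3.84, 4.81 and 2.95 in controls and 3.23, 3.17 and 3.33 with 8p, so these groups overlapped. The ratio of HLA-DRA to HLA-DRB1 was 83.3, 52.3 and 84.0 in the 8p libraries, and only control replicate 3, at 20.2, had HLA-DRB1 counts to set beside it. HLA-DPA1 to HLA-DPB1 gave 1.502, 1.457 and 0.486 in the 8p libraries, where 8p replicate 3 had 60 counts of each gene. With the longest coding transcript as length, their mean levels with 8p were 2.89 and 1.61 CPM per kilobase.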
